A study of Oryctolagus cuniculus with 12 samples.

Results

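Genes characteristic of adipocytes were examined in bulk RNA-seq of rabbit ear skin and hypertrophic scar (HS). A list of 10 gene symbols was looked up in the expression table, and 7 of them were present among its 29587 genes, namely ADIPOQ, LEP, PPARG, CIDEA, CIDEC, LIPE and LPL. No symbol was repeated. The symbols PLIN1, PLIN4 and FABP4 were not in the table and no value is given for PLIN1 and PLIN4. A gene without a symbol is described in the table as adipocyte fatty acid-binding protein (ENSOCUG00000007445), and its values are given separately because it did not meet the rule.

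The 12 samples of wild-type, female rabbit ear formed 4 groups of 3. NS was normal skin of untreated rabbits, and HS was scar that formed after skin resection and received no treatment. Scar of the drug-loaded MNs group was covered with 1 patch of drug-loaded microneedles at every lesion, and that of the 5-Fu injection group was injected with 120 μg of 5-Fu in a volume of 0.1 mL. Both were given on days 22, 29 and 36 after resection. By the study's methods, tissue for sequencing was harvested a week after the treatment of day 36. According to the study's methods the full thickness of the ear was taken, so cartilage, muscle and fat of the ear could be in a sample. There were 3 rabbits per group by the study's methods, but the labels do not tie a sample to a rabbit. Several lesions were made on each ear, so the spread between samples may not be the spread between animals. The study's methods give the same age range, in weeks, for all rabbits.

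Adipocytes store triglyceride in a lipid droplet that is coated by perilipins and enlarged by CIDE proteins. PPARG, with the CCAAT/enhancer-binding proteins, drives their differentiation, LPL releases fatty acids from circulating lipoproteins for uptake, and LIPE (hormone-sensitive lipase) breaks stored lipid down again. Adiponectin (ADIPOQ) and leptin (LEP) are the hormones secreted by fat cells, and several of the lipid genes are also used outside fat, for example CIDEA in sebaceous glands. A bulk sample pools the RNA of all cells, so fewer cells of a type and less RNA per cell cannot be told apart.

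The values are FPKM, fragment counts corrected for the length of the gene and for sequencing depth. Reads on genes, counted back from the FPKM, ranged from 10521472 to 14043667 per sample. Genes were compared with limma on log2(FPKM + 1), so a log2 fold change understates the change of genes with low values. The SEs and intervals given rest on 1 estimate of spread per gene, shared by the 4 groups, not on the 2 groups compared alone. A gene was called a DEG where the p adjusted by Benjamini-Hochberg was below 0.05 and the log2 fold change exceeded 1 in either direction. Of the members, 6 had a mean FPKM of at least 1 and were tested, and LEP was not.

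The members spanned a wide range of levels. Averaged over the 12 samples, ADIPOQ stood at an FPKM of 399 and ranked 203 among all genes of the table. CIDEA followed with 85.9 and LPL with 36.4. CIDEC stood at 10.6, LIPE at 7.43 and PPARG at 7.18, and LEP was last with 0.287. The lowest ADIPOQ value of any sample (236) was above the highest CIDEA value (218), and the highest LEP value (1.66) was below the lowest CIDEC value (1.89). Every other neighbouring pair in this order overlapped across the samples.

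Against the label of the list, its members did not behave as 1 set. ADIPOQ was among the most abundant genes while LEP, the other fat cell hormone, was at or near 0. Across the 12 samples the log2 level of ADIPOQ was negatively correlated with each of the 5 other tested members, with Pearson's r from -0.75 to -0.23. The 10 pairs among CIDEA, CIDEC, LIPE, LPL and PPARG all had a positive r, from 0.21 to 0.77. These are descriptions over samples that share group differences and scaling. After the group means were subtracted, the r ranged from -0.81 to 0.38 for pairs with ADIPOQ and from -0.18 to 0.85 for the other pairs, so the separation of ADIPOQ was less regular within groups.

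**Figure D1:**
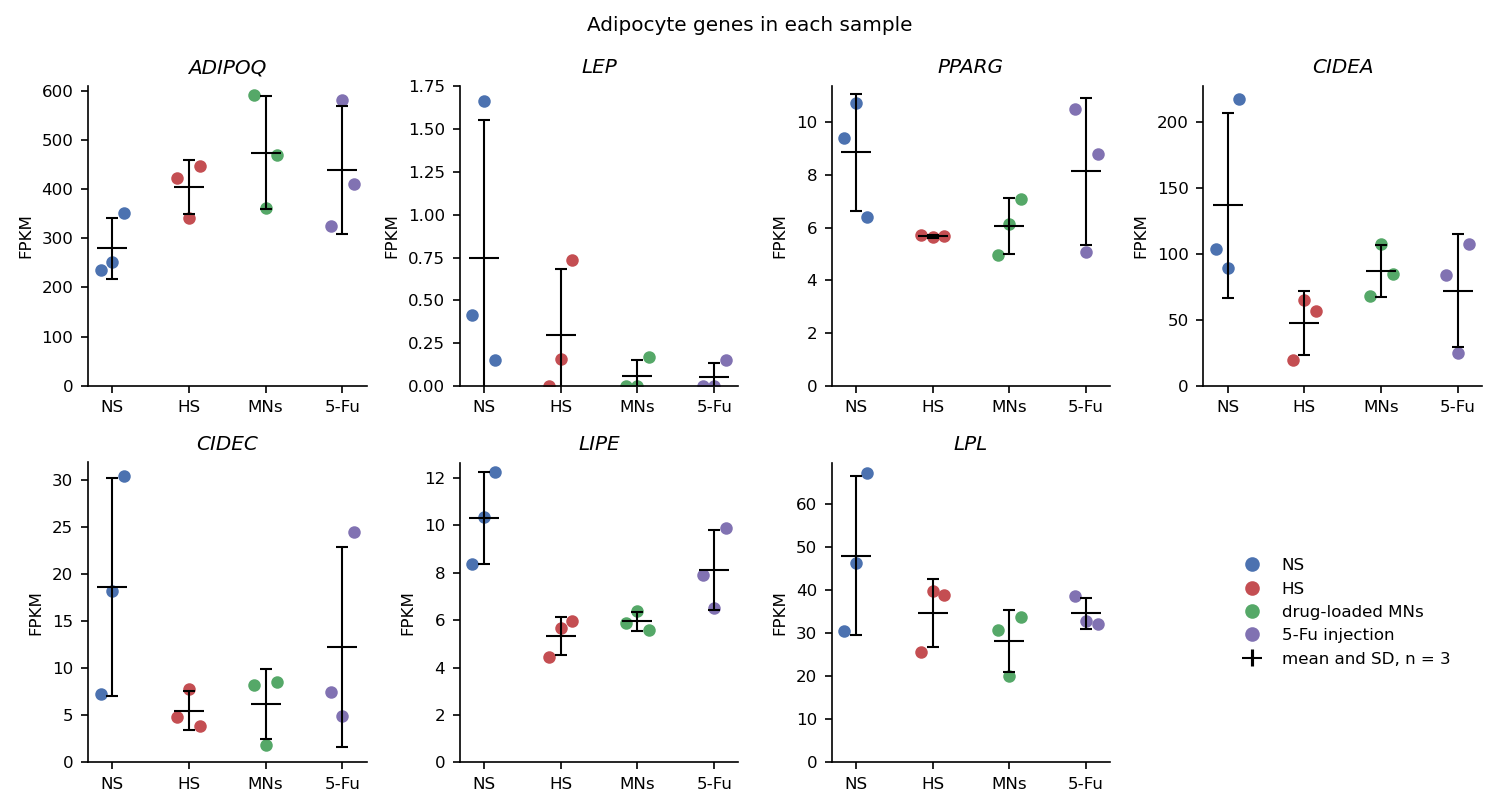
FPKM (vertical axes, each starting at 0) of the 7 adipocyte genes in the 12 samples, where points are samples and the black marks give the mean and SD of each group of 3. ADIPOQ was lowest in NS on average, with a mean of 280, whereas the NS means of the other 6 genes were the highest of the 4 groups.

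The hormones were considered first. ADIPOQ (ENSOCUG00000026268) is listed on chromosome 14 from 82543248 to 82545088, on a build that the sources used here do not name. Its FPKM was 236, 252 and 351 in NS and 423, 342 and 446 in HS. With drug-loaded MNs it was 591, 361 and 469, and after 5-Fu injection 325, 581 and 410. All NS samples but replicate 3 were below every other sample, and NS overlapped with HS and with the 5-Fu injection group.

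The log2 fold change of ADIPOQ for HS versus NS was 0.54 ± 0.26 (SE, n = 3 per group), with a 95% interval from -0.02 to 1.10, and it missed the threshold (limma, adjusted p = 0.231). The value for drug-loaded MNs versus NS was 0.75 (95% interval 0.19 to 1.31, limma adjusted p = 0.231), and these groups did not overlap. The value for 5-Fu injection versus NS was 0.63 (95% interval 0.07 to 1.19, limma adjusted p = 0.294). Neither treated group was told apart from HS, with 0.21 for drug-loaded MNs (95% interval -0.35 to 0.77) and 0.09 for 5-Fu injection (95% interval -0.47 to 0.65). The size of the ADIPOQ difference depended on the scaling. With values rescaled to the total of reads on genes, HS versus NS gave 0.18 (limma, adjusted p = 0.613), beside a median of -0.33 over all tested genes. Among the alternatives run, the lowest values were 0.54 for drug-loaded MNs versus NS and 0.35 for 5-Fu injection versus NS.

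The gene that follows ADIPOQ in the table is annotated as the small nuclear RNA U2 (ENSOCUG00000030466). It lies on chromosome 14 from 82545244 to 82545403 on the opposite strand, with 155 bases between them. U2 RNA, a component of the spliceosome, carries no poly-A tail, and the study's methods describe libraries made from mRNA purified on poly-T beads. The mean FPKM of this gene was 682, whereas the next highest of the 465 genes annotated as U2 stood at 35.3 and 407 of them were 0 in every sample.

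The neighbouring gene followed ADIPOQ closely. Its FPKM was 426, 446 and 582 in NS, 523 to 717 in HS and 608 to 924 in the treated groups. It was the gene most correlated with ADIPOQ among 13286 tested genes, with Pearson's r = 0.93 and Spearman's rho = 0.88 over the 12 samples. The r was 0.89 after the group means were subtracted, and 0.91 without the 2 samples farthest from the median of ADIPOQ. Each read on ADIPOQ came with 0.228 to 0.339 reads on this gene, from 3125 to 7224 reads on ADIPOQ and 886 to 1710 on its neighbour. Whether the reads of both genes come from a single transcript, and what part this has in the level of ADIPOQ, was not tested.

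**Figure D2:**
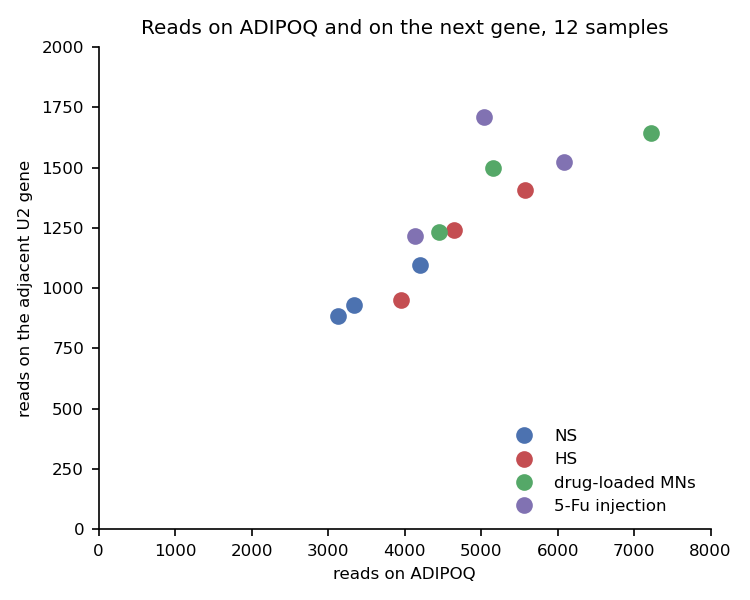
Reads counted back on ADIPOQ (horizontal axis) and on the adjacent gene annotated as U2 (vertical axis), 1 point per sample, coloured by group, both axes starting at 0. The points rise together from 3125 reads on ADIPOQ and 886 on the neighbour in NS replicate 1 to 7224 and 1644 in drug-loaded MNs replicate 1.

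LEP (ENSOCUG00000010189, chromosome 7) was barely detected. NS replicates 1 to 3 held 3, 12 and 1 reads of it, and those of HS held 0, 1 and 5. Each of the treated groups had 1 read in replicate 3 and 0 in the others. A count of 0 allows up to 3 reads, which corresponds to an FPKM of 0.433 to 0.526 in the samples at 0. The LEP values of 0 to 0.149 after 5-Fu injection were all below those of NS, 0.154 to 1.66, but the values nearest to each other rest on 1 read each. Fitted without the filter on low values, the log2 fold change of LEP was -0.63 for drug-loaded MNs versus NS (95% interval -1.26 to -0.0058, limma adjusted p = 0.465) and -0.64 for 5-Fu injection versus NS (95% interval -1.27 to -0.013, limma adjusted p = 0.405). Neither passed the threshold, and they rest on 16 reads in NS, 12 of them in replicate 2, against 1 in each treated group.

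Among regulators, PPARG (ENSOCUG00000013194, chromosome 9) is the master transcription factor of adipocytes. Its FPKM was 9.39, 10.7 and 6.41 in NS and 5.73, 5.63 and 5.66 in HS. It was 4.98, 6.15 and 7.09 with drug-loaded MNs and 10.5, 5.08 and 8.79 after 5-Fu injection. The HS samples lay close together and all below NS, whereas the 5-Fu injection samples spanned nearly the whole range.

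For HS versus NS the log2 fold change of PPARG was -0.53 ± 0.25 (SE, n = 3 per group), with a 95% interval from -1.08 to 0.01 (limma, adjusted p = 0.219). It was 0.07 for drug-loaded MNs versus HS (95% interval -0.47 to 0.61) and 0.40 for 5-Fu injection versus HS (95% interval -0.14 to 0.94, limma adjusted p = 0.325).

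The lipid droplet proteins CIDEA and CIDEC promote the fusion of droplets. CIDEA (ENSOCUG00000011380, chromosome 9) had an FPKM of 104, 89.2 and 218 in NS and 20.0, 65.5 and 56.9 in HS. With drug-loaded MNs it was 68.2, 108 and 85.2, and after 5-Fu injection 84.0, 24.8 and 108. Every HS sample was below every NS sample and below every drug-loaded MNs sample, and 5-Fu injection replicate 2 sat among the HS samples.

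The log2 fold change of CIDEA for HS versus NS was -1.56 ± 0.57 (SE, n = 3 per group), past the fold threshold but not the p threshold (95% interval -2.81 to -0.31, limma adjusted p = 0.128). It was 1.00 for drug-loaded MNs versus HS (95% interval -0.25 to 2.25, limma adjusted p = 0.641) and 0.52 for 5-Fu injection versus HS (95% interval -0.73 to 1.77, limma adjusted p = 0.595). Without HS replicate 1, the lowest sample, the value for HS versus NS was -1.04, and without NS replicate 3, the highest, it was -1.17.

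CIDEC (ENSOCUG00000005302, on the unplaced sequence GL018802) had an FPKM of 7.25, 18.2 and 30.4 in NS and 4.86, 7.81 and 3.84 in HS. With drug-loaded MNs it was 8.18, 1.89 and 8.48, and after 5-Fu injection 7.43, 4.97 and 24.4. NS replicate 1 lay within the HS range, so the groups overlapped, and the high values came from NS replicates 2 and 3 and from 5-Fu injection replicate 3.

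The log2 fold change of CIDEC for HS versus NS was -1.44 ± 0.64 (SE, n = 3 per group), with a 95% interval from -2.84 to -0.03 (limma, adjusted p = 0.203). It was 0.00 for drug-loaded MNs versus HS (95% interval -1.40 to 1.41), and its sign depended on the processing and on the samples kept. In 5-Fu injection versus HS it was 0.78 (95% interval -0.62 to 2.19, limma adjusted p = 0.464).

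Of the lipases, LIPE (ENSOCUG00000000017, on the unplaced sequence GL018789) separated HS from NS most clearly. Its FPKM was 8.36, 10.4 and 12.2 in NS and 4.45, 5.66 and 5.95 in HS. With drug-loaded MNs it was 5.87, 6.38 and 5.59, and after 5-Fu injection 7.93, 6.52 and 9.89. The HS and drug-loaded MNs samples were all below NS, and the 5-Fu injection samples were all above both untreated HS and drug-loaded MNs. A further gene within the span of LIPE, also described as hormone-sensitive lipase, had a mean FPKM of 0.115.

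The log2 fold change of LIPE for HS versus NS was -0.83 ± 0.18 (SE, n = 3 per group), with a 95% interval from -1.23 to -0.42. Its adjusted p of 0.0224 (limma) passed the threshold, the only such case among the 6 members, but its fold change did not, so it was no DEG. The adjusted p was above 0.05 when HS replicate 1 (0.0876), HS replicate 2 (0.0582), NS replicate 2 (0.0637) or NS replicate 3 (0.0673) was left out. Drug-loaded MNs versus NS gave a LIPE value of -0.69 (95% interval -1.10 to -0.29, limma adjusted p = 0.128). The LIPE value for 5-Fu injection versus HS was 0.51 (95% interval 0.11 to 0.92, limma adjusted p = 0.119), and for drug-loaded MNs versus HS it was 0.14 (95% interval -0.27 to 0.54).

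LPL (ENSOCUG00000008236, chromosome 15) had an FPKM of 30.5, 46.3 and 67.3 in NS and 25.5, 39.7 and 38.8 in HS. With drug-loaded MNs it was 30.8, 20.0 and 33.7, and after 5-Fu injection 38.7, 32.8 and 32.2. NS replicates 2 and 3 were above all other samples, but every pair of groups overlapped.

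The log2 fold change of LPL for HS versus NS was -0.41 (95% interval -1.04 to 0.21, limma adjusted p = 0.424). It was -0.71 for drug-loaded MNs versus NS (95% interval -1.34 to -0.08, limma adjusted p = 0.323) and 0.02 for 5-Fu injection versus HS (95% interval -0.61 to 0.65). The span of LPL also holds a gene described as a mitochondrial ribosomal protein, with a mean FPKM of 12.2. Whether reads were counted by strand is not given in the sources used here.

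The gene described as adipocyte fatty acid-binding protein, a carrier of fatty acids in fat cells and also in endothelial cells, was abundant. Its FPKM was 78.5, 89.5 and 73.1 in NS and 56.6, 59.4 and 90.4 in HS. It was 40.7, 46.4 and 85.8 with drug-loaded MNs and 61.5, 49.1 and 141 after 5-Fu injection. All groups overlapped, and replicate 3 was the highest in each scar group. For HS versus NS its log2 fold change was -0.25 (95% interval -1.07 to 0.58, limma adjusted p = 0.732).

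For HS versus NS, 0 of the 6 tested members were DEGs, beside 5% of all tested genes (665 of 13287). Of the members 3 had an unadjusted p (limma) under 0.05, beside 3109 of the 13287 tested genes. LIPE, CIDEA and PPARG had lower values in HS without overlap, beside 15.3% of all tested genes. The median log2 fold change of the 6 members was -0.68, while that of all tested genes was -0.01. Such a median was not particular to the members. Among the gene lists described below, it ran from -1.61 (skeletal muscle, 3 tested genes) to 0.98 (macrophage). It was -0.76 for sebaceous gland, -0.68 for thermogenic and -0.65 for ear cartilage genes. When the values were rescaled to the total of reads on genes, the median of all genes shifted to -0.33 and CIDEA (-1.92, limma adjusted p = 0.0374) and LIPE (-1.15, limma adjusted p = 0.00594) passed both thresholds. Relative to that shift LIPE remained within the fold threshold.

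Between drug-loaded MNs and HS, 0 of the 6 members were DEGs. Unadjusted p-values under 0.05 were found for 0 members, beside 1183 of the 13287 tested genes. Among all tested genes 0.00753% were DEGs. Of the members, CIDEA alone had groups that did not overlap, with higher values after treatment, beside 8.53% of all tested genes in that direction. Between 5-Fu injection and HS, 0 members were DEGs, beside 2.29% of all tested genes. Of the 6 members 1 had an unadjusted p under 0.05, beside 3449 of the 13287 tested genes. LIPE did not overlap, with higher values after treatment, beside 13.9% of all tested genes. The median log2 fold changes of the members were 0.10 and 0.46, respectively, beside -0.02 and 0.02 for all tested genes. Both comparisons use the same HS samples.

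The treated groups were also set against NS and against each other. For drug-loaded MNs versus NS, 0 members were DEGs, beside 0.873% of all tested genes. Of the members 4 had an unadjusted p under 0.05, beside 1718 of the 13287 tested genes. ADIPOQ was higher without overlap, beside 11.5% of all tested genes, and LIPE was lower without overlap, beside 9.11%. For 5-Fu injection versus NS, 0 members were DEGs, beside 0.00753% of all tested genes. In this comparison 1 member (ADIPOQ) had an unadjusted p under 0.05, beside 1981 of the 13287 tested genes. No tested member was free of overlap, beside 18.8% of all tested genes. Between the treatments, 0 members were DEGs, beside 0% of all tested genes. An unadjusted p under 0.05 was reached by 0 members, beside 2009 of the 13287 tested genes. LIPE was lower without overlap in drug-loaded MNs than after 5-Fu injection, beside 8.42% of all tested genes.

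**Figure D3:**
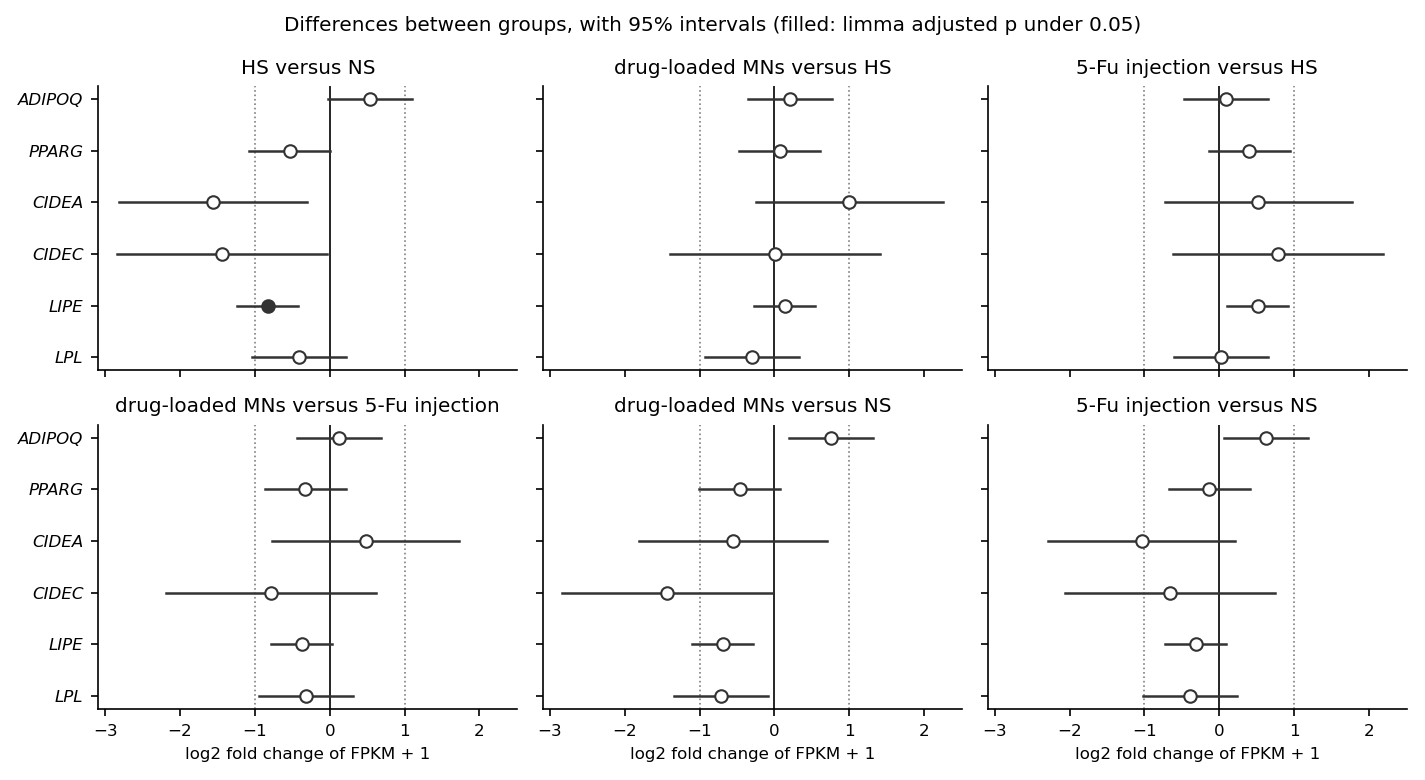
Log2 fold change of FPKM + 1 (horizontal axis) of the 6 tested members in the 6 comparisons, with 3 samples per group. The 95% intervals use 1 estimate of spread per gene, shared by the 4 groups. Dotted lines mark the fold threshold of 1 in each direction and a filled point an adjusted p (limma) under 0.05. LIPE for HS versus NS, at -0.83, is the only filled point, and the widest intervals belong to CIDEA and CIDEC.

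NS replicate 3 had the highest CIDEA, CIDEC, LPL and LIPE of all samples, and it also held the most muscle RNA. The summed FPKM of 8 skeletal muscle genes was 74.8 in this sample, against 10.8 and 13.3 in the other NS samples and 6.11 to 20.5 in the scar groups. ACTA1 and CKM, the actin and creatine kinase of skeletal muscle, reached 44.2 and 23.7 there, and 2 of the 8 genes were 0 in all NS samples. The part of muscle or of tissue beneath the skin in the levels of the adipocyte genes was not tested. Without this sample the log2 fold change for HS versus NS was -0.71 for LIPE, -1.17 for CIDEA, -0.998 for CIDEC and -0.14 for LPL, with limma adjusted p of 0.0673, 0.295, 0.43 and 0.811.

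Genes that resembled the members across samples were sought by their correlation with the mean centred log2 level of the 6 tested members. The 10 nearest genes with a symbol were PYGM, PDLIM3, C11orf96, CRTAC1, NFYC, ACTN2, PPP1CC, CALM2, NR4A2 and TADA1, with r from 0.84 to 0.90 over 12 samples. PYGM and ACTN2, muscle glycogen phosphorylase and a sarcomere actinin, are muscle genes. Taken member by member, a choice made after the values were seen, CIDEA was nearest to B4GALNT3 (r = 0.93) and to the hair follicle gene HR (r = 0.92). PPARG was nearest to PCBD1 and FA2H (r = 0.93 for each), and FA2H, a fatty acid hydroxylase, is on the list of sebaceous gland genes.

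**Figure D4:**
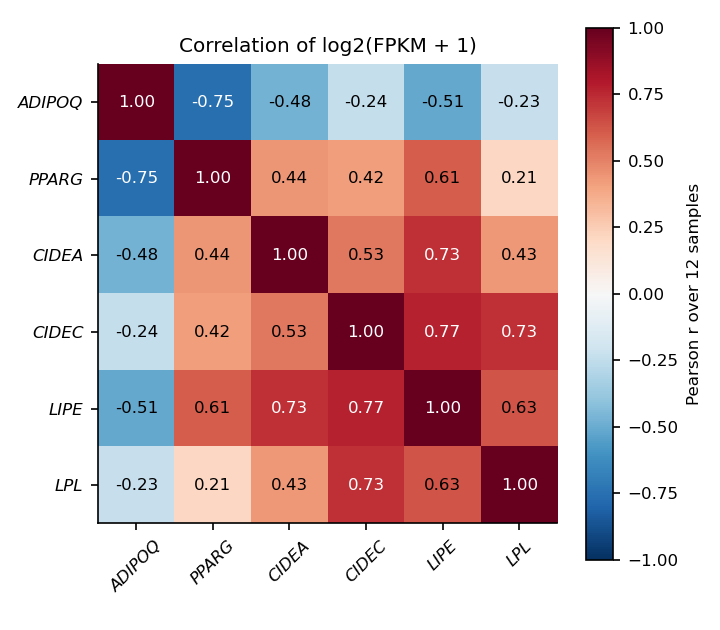
Pearson's r between the log2(FPKM + 1) values of the 6 tested members over the 12 samples, red for positive and blue for negative. The 5 pairs with ADIPOQ lie between -0.75 and -0.23, and the 10 other pairs between 0.21 and 0.77.

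The sebaceous gland list was described because sebaceous glands also store lipid. Of its 9 tested genes 0 were DEGs for HS versus NS and 4 were lower in HS without overlap, beside the same 15.3% of all tested genes. The 4 genes were MC5R, MGST1, FA2H and ACSBG1. SOAT1 and FADS2 were higher in HS without overlap, beside 18% of all tested genes, with means of 5.82 and 54.5 in NS and 10.3 and 82.9 in HS. MGST1, a glutathione transferase of the endoplasmic reticulum, had a log2 fold change of -0.76 (limma, adjusted p = 0.036) and FA2H one of -1.04 (limma, adjusted p = 0.117). The median log2 fold change of the 9 tested genes was -0.76. Of these 5 had an unadjusted p (limma) under 0.05 in either direction, beside 3109 of the 13287 tested genes. The summed FPKM of the list was 178 to 210 in NS and 142 to 184 in HS, so the sums overlapped. FADS2, which was higher in HS, had the highest mean FPKM of the list and weighs most in these sums. The part of sebaceous glands in the values of CIDEA and PPARG was not tested.

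Other genes of fat cell biology were taken from lists on lipid droplets, lipolysis, triglyceride synthesis, transcription factors, adipokines, thermogenesis and progenitors. With the lists for other cell types they held 99 distinct tested genes, of which 12 were DEGs for HS versus NS, 6 higher and 6 lower in HS, beside 3.53% and 1.48% of all tested genes, and 0 in each of the other comparisons. In those other comparisons 0 to 304 of the 13287 tested genes were DEGs. No tested gene of the sebaceous, endothelial, macrophage, muscle or cartilage lists was a DEG. In the counts below, rose and fell refer to DEGs. Without overlap, 4 thermogenic, 4 triglyceride and 4 transcription factor genes were lower in HS, and 1, 1 and 2 were higher. It was 3 lower and 1 higher for lipolysis, and 2 lower and 1 higher for lipid droplets. For adipokines and for progenitors it was 1 lower and 3 higher each. Of all tested genes 15.3% were lower and 18% higher without overlap.

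Of 8 tested lipid droplet genes 1 rose and 1 fell in HS. PLIN2, the perilipin that coats droplets in most cell types, rose from an FPKM of 19.2 to 24.4 in NS to 43.2 to 51.5 in HS, a log2 fold change of 1.05 (limma, adjusted p = 0.00142). It was 32.8 to 38.8 with drug-loaded MNs and 31.2 to 33.0 after 5-Fu injection. Its fold change was just under the threshold without HS replicate 1 (0.97) or NS replicate 3 (0.97), and it was 0.70 when the values were rescaled to reads.

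G0S2, an inhibitor of the triglyceride lipase PNPLA2, counted in both the lipid droplet and the lipolysis lists. It fell from an FPKM of 46.1 to 81.5 in NS to 13.7 to 22.0 in HS (log2 fold change -1.60, limma adjusted p = 0.0203), and stood at 8.51 to 27.8 in the treated groups. The call was lost without HS replicate 1 (adjusted p = 0.081) or NS replicate 3 (adjusted p = 0.0588). Of the 8 tested lipolysis genes reported here, no other was called.

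Of 12 tested genes for triglyceride uptake and synthesis only ACSL1 was called. This gene, matched by its description, encodes an enzyme that activates long-chain fatty acids, and it fell from an FPKM of 25.0 to 32.3 in NS to 10.2 to 18.2 in HS (log2 fold change -1.03, limma adjusted p = 0.0138). It was no longer called without HS replicate 1 (-0.85), HS replicate 2 (adjusted p = 0.0516), NS replicate 1 (adjusted p = 0.0514) or NS replicate 3 (-0.94).

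Among 11 tested adipogenic transcription factors 2 fell and 1 rose. KLF5, which acts early in adipogenesis and also in epithelia, fell from an FPKM of 43.2 to 60.6 in NS to 18.9 to 21.7 in HS (log2 fold change -1.32, limma adjusted p = 0.0101) and was called in every alternative. CEBPA, the partner of PPARG, fell from 36.1 to 48.8 to 14.7 to 23.0 (log2 fold change -1.11, limma adjusted p = 0.0259). It was not called without HS replicate 1, HS replicate 3, NS replicate 1 or NS replicate 3, with adjusted p from 0.0631 to 0.097 in these fits, or with the replicate number as a block (adjusted p = 0.0554).

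ZNF423, a preadipocyte factor, rose from 1.98 to 3.19 in NS to 5.82 to 16.3 in HS (log2 fold change 1.44, limma adjusted p = 0.0274). Without HS replicate 1, NS replicate 1 or NS replicate 2 its adjusted p was 0.0714, 0.0847 and 0.0879. Of 8 tested adipokine and receptor genes only CDH13 was called. CDH13, or T-cadherin, is a surface protein that binds adiponectin, and its FPKM was 36.8 to 91.8 in NS and 106 to 142 in HS (log2 fold change 1.13, limma adjusted p = 0.0303). The call was lost without each of the HS samples and without NS replicates 1 and 2, with adjusted p from 0.0592 to 0.11.

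Among 9 tested thermogenic genes 1 rose and 1 fell, and UCP1, which defines heat-producing adipocytes, was 0 in all HS samples and at most 0.156 elsewhere. TMEM26, used as a marker of beige adipocytes, rose from at most 0.348 in any NS sample to at least 3.62 in each HS sample, with means of 0.162 and 7.62 (log2 fold change 2.66, limma adjusted p = 0.0127). CKMT1, the mitochondrial creatine kinase, matched by its description, fell from 9.56 to 48.9 to 2.88 to 4.63 (log2 fold change -2.33, limma adjusted p = 0.0133), with adjusted p of 0.0535 and 0.0541 without HS replicate 1 and NS replicate 1.

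Of 8 tested progenitor genes 2 rose and 1 fell. PDGFRA, a receptor carried by adipose progenitors and by fibroblasts in general, was matched by its description and rose from an FPKM of 9.99 to 13.7 in NS to 42.2 to 93.2 in HS (log2 fold change 2.19, limma adjusted p = 0.0124). ZNF521, which restrains adipogenesis, rose from 6.64 to 11.3 to 23.9 to 28.4 (log2 fold change 1.46, limma adjusted p = 0.0119). Along with TMEM26 and KLF5, these genes were called in all alternatives run. F3, or tissue factor, fell from 36.0 to 74.7 to 18.3 to 28.0 (log2 fold change -1.16, limma adjusted p = 0.0409) and was not called without any single HS sample, NS replicate 1 or NS replicate 3, with adjusted p from 0.0744 to 0.142.

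**Figure D5:**
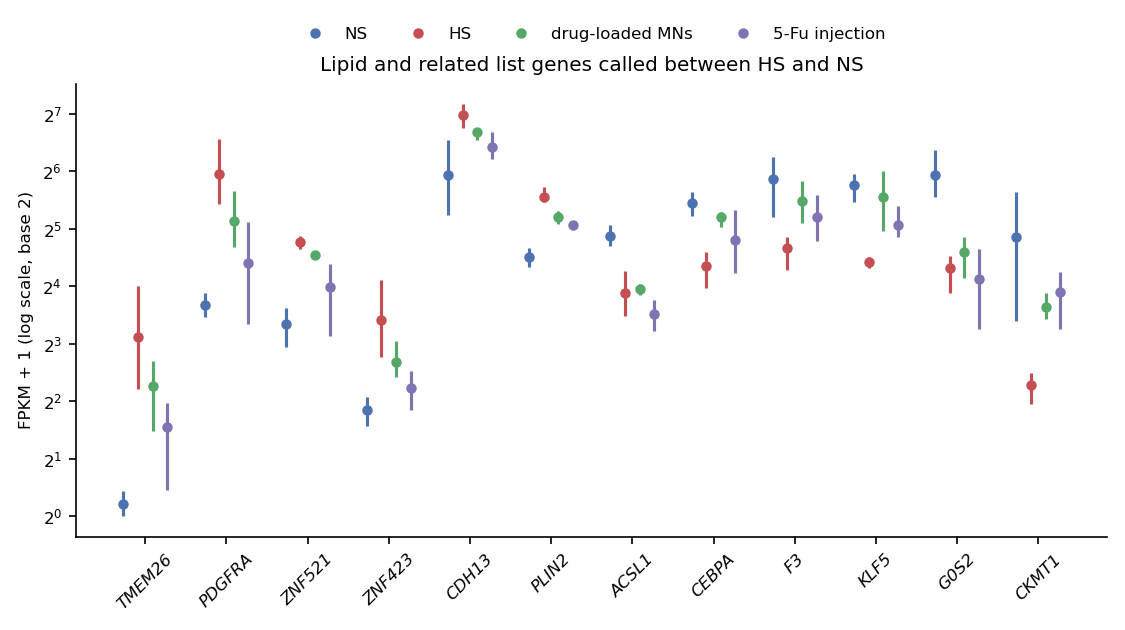
FPKM + 1 (vertical axis, logarithmic) of the 12 DEGs for HS versus NS among the list genes, where points are group means and lines run from the lowest to the highest of the 3 samples. NS and HS are separated for each gene, as for KLF5 at 43.2 to 60.6 against 18.9 to 21.7.

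Endothelial and macrophage genes, which mark other cells that could be in the samples, were not called either. The summed FPKM of 7 endothelial genes was 317 to 405 in NS and 395 to 461 in HS, so the sums overlapped. The median log2 fold change of these genes was 0.29. Of the 7, 2 had an unadjusted p (limma) under 0.05, beside 3109 of the 13287 tested genes. KDR alone was higher without overlap, beside 18% of all tested genes. Its mean was 12.9 in NS and 21.1 in HS (limma, adjusted p = 0.272). PECAM1 had a mean of 80.2 in NS and 77.4 in HS. Of 8 tested macrophage genes CD163, CSF1R and MRC1 were higher in HS without overlap, beside 18% of all tested genes, and the sums of 9 genes overlapped. The median log2 fold change of the 8 was 0.98. Among them 3 had an unadjusted p under 0.05, beside the same 3109 of all tested genes. Cartilage differed widely within groups, with sums of 9 genes from 559 to 5507 over the 12 samples and such a spread in every scar group, and its part in the values above was not tested.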

How the data were processed

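RNA of full thickness rabbit ear was sequenced in 12 samples, grouped by their labels into 4 groups of 3. The authors deposited 1 table of FPKM values for 29587 genes. It was found to be scaled between samples already, and when multiplied by gene length 100% of the values were whole multiples of the value of 1 read (tolerance 0.001), which allowed reads to be counted back. An FPKM of 0.0768 to 0.0972 equals 1 read on a gene of 1 kilobase. Limits from counts cover counting error only. The aligner, the counter, the genome build and strand use are not given in the sources used here.

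A linear model of the 4 groups was fitted with limma 3.58.1 in R 4.3.3 on log2(FPKM + 1), with empirical Bayes moderation and a mean-variance trend, for 13287 genes whose mean FPKM reached 1. P-values were adjusted by Benjamini-Hochberg within each of 6 comparisons, and the procedure was tested on simulated data. The main test took the deposited FPKM values. DESeq2, which the authors applied to counts, was not run, although reads could be counted back. Alternatives were a pseudocount of 0.1, no filter, quantile normalization, rescaling to reads on genes, only the 2 groups compared, the replicate number as a block, limma voom on the reads counted back, and each sample left out in turn.

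The members and lists were chosen with earlier results of these data known. Of 140 genes on 12 lists, 117 were found, 98 by symbol and 19 by their description. A further list gene is not reported here. The protein names used for this were written with the table's gene names in view. Where several genes shared a name, the one with the highest mean FPKM was kept. Genes named are all members, the list genes called in any comparison or otherwise up to 4 of a list with the highest mean, and the 10 genes most like the members. Others were chosen after their values were seen, which holds for the neighbour of ADIPOQ, the genes nearest to single members, UCP1, and the sebaceous, endothelial, macrophage and muscle genes that did not overlap.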

Additional observations from a re-analysis of the deposited data

How the results depend on the processing

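The 6 tested members gave 0 calls in each comparison under every alternative run, except 2 for HS versus NS after rescaling to reads on genes, which also moved the DEGs among all genes from 469 higher and 196 lower to 311 higher and 749 lower (1060 in all). Small differences changed sign. CIDEC for drug-loaded MNs versus HS was -0.044 at a pseudocount of 0.1, -0.043 with quantile normalization and -0.061 with limma voom, and ranged from -0.29 to 0.57 when each sample was left out in turn. For 5-Fu injection versus HS, quantile normalization gave -0.10 for ADIPOQ and -0.0025 for LPL, and the fits without a sample ranged from -0.14 to 0.28 and from -0.18 to 0.13. In the same fits PPARG ranged from -0.030 to 0.19 for drug-loaded MNs versus HS and from -0.33 to 0.13 for 5-Fu injection versus NS, and for drug-loaded MNs versus 5-Fu injection ADIPOQ ranged from -0.073 to 0.35 and CIDEA from -0.15 to 0.89. The cause was not tested.

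The DEG counts behind the percentages depended on the settings. For drug-loaded MNs versus HS there were 2 without the filter, 37 with only the groups compared and 0 with voom. There were 93 for 5-Fu injection versus HS without the filter and 0 with only the groups compared. There was 1 for drug-loaded MNs versus 5-Fu injection without the filter, and for drug-loaded MNs versus NS there were 51. There were 2 for 5-Fu injection versus NS at the pseudocount of 0.1, 2 without the filter, 3 with quantile normalization, 4 after rescaling to reads and 0 with only the groups compared. When each sample was left out the counts were 382 to 653 for HS versus NS, 0 to 2 for drug-loaded MNs versus HS, 0 to 803 for 5-Fu injection versus HS (803 without 5-Fu injection replicate 2), 0 to 12 for drug-loaded MNs versus 5-Fu injection, 0 to 113 for drug-loaded MNs versus NS and 0 to 20 for 5-Fu injection versus NS.

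The groups are different rabbits that share only replicate numbers, and the correlation of deviations between samples of the same number ran from -0.27 to 0.44. Blocking on this number gave counts of 579, 0, 99, 0, 23 and 0 for HS versus NS, drug-loaded MNs versus HS, 5-Fu injection versus HS, drug-loaded MNs versus 5-Fu injection, drug-loaded MNs versus NS and 5-Fu injection versus NS, and 0 members were called.

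Beyond the fits without a sample, the calls for ZNF423, CDH13 and F3 were lost without the filter (limma adjusted p from 0.0537 to 0.0701), those for ZNF423, CDH13 and F3 with only the groups compared (0.0634 to 0.0844), those for CEBPA and F3 with the block (0.0554 and 0.0685), and that for CDH13 after rescaling to reads (0.0555). With 3 samples per group the intervals of CIDEA and CIDEC were wide, and LEP, with 0 to 12 reads per sample, was fitted only without the filter.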
